A study of Homo sapiens with 6 samples.

Results

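The 50 genes described here encode proteins that carry a cell through G2 and mitosis, and each was found by its symbol among the 56638 rows of the count table. They were measured as poly(A) RNA in MOLM-13, an established line of human leukaemic monoblasts, in 3 libraries of cells given 2 µM UC-764864 for 24 h and 3 libraries of cells given DMSO, the solvent, for 24 h. The series title says that UC-764864 inhibits UBE2N, which helps build ubiquitin chains, and the series design text writes it UC-744864. UDI0051, UDI0052 and UDI0053 are the UC-764864 libraries, and UDI0054, UDI0055 and UDI0056 the DMSO libraries. All 6 come from 1 cell line, and no label says that libraries of a group were separate cultures, so each p-value reflects the spread among these libraries alone, and that spread may be technical.

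Cells enter mitosis when cyclin B binds the kinase CDK1 and CDC25 phosphatases remove the phosphates that hold the complex inactive. Kinetochores then attach chromosomes to a spindle built by motors and microtubule-binding proteins, and the spindle checkpoint restrains CDC20, the activator of the anaphase-promoting complex, until attachment is complete. That complex marks securin and cyclin B for destruction, after which the central spindle directs cytokinesis. Most of these genes are transcribed late in the cycle, which is why their transcripts are used as readouts of proliferation in leukaemia cells.

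The labelled line was checked by markers: 8 myeloid and MOLM-13 genes such as FLT3 and LYZ summed to 6156 to 7366 CPM after UC-764864 and 4242 to 4615 CPM after DMSO. LYZ made up most of this sum (5202 to 6305 against 3137 to 3366 CPM), whereas CSF1R (28.9 to 38.0 against 48.9 to 54.3 CPM) and HOXA9 (56.2 to 70.2 against 100.5 to 115 CPM) were lower in every UC-764864 library. The part of these differences in the results below was not tested. CPM is counts per 1000000. These marker values were scaled only by each library's counts in the rows that all libraries hold. CPM values of the genes tested were scaled by library size and TMM factors. The T and B cell markers CD3G and MS4A1 had no count in any library. Total counts ranged from 16136156 to 25014437 per library. The column of UDI0055 holds 0 in 3799 rows in 2 unbroken runs, and other libraries have counts in 61 of the 115 rows of one and 918 of the 3684 rows of the other. GTSE1 lies in one of them, so 49 of the 50 members entered the comparison over all 6 libraries and GTSE1 was tested in the 5 libraries that hold it. UDI0052 and UDI0056, one from each group, had the smallest shares of counts in genes of at least 60% GC, 9.52% and 9.76%, against 11.6% to 13.2% in the other 4. UBE2N itself stood at 157, 171 and 149 CPM in the UC-764864 libraries and 180, 180 and 209 CPM in the DMSO libraries (log2 fold change −0.25 ± 0.11 SE, edgeR quasi-likelihood test, adjusted p = 0.156).

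Promoters of these genes are known for 2 elements, the cell cycle homology region bound by MuvB complexes and the CCAAT box bound by NF-Y. RefSeq promoter windows (GRCh38.p14, 250 bases before and 50 after each start) were matched for 43 of the 50 members. TTTGAA or TTCGAA, the letters searched for the first element on both strands, occurred in at least 1 window of 32 of the 43 genes (74.4%), against 19.5% of 27305 genes with a window. CCAAT, on either strand, occurred for 35 of 43 (81.4%), against 39.7% of all genes, and both kinds occurred for 28 of 43 (65.1%), against 7.85%. The share with TTTGAA or TTCGAA was 20 of 28 among members with a positive fold change after UC-764864 and 12 of 15 among those with a negative one. A match is a description of letters and not a binding site. The 250 bases before the start are printed for the 5 members with a window that passed the test below, MKI67 (chr10:128126424-128126673, minus strand), KIF23 (chr15:69414099-69414348, plus), KIF20A (chr5:138178862-138179111, plus), ASPM (chr1:197146670-197146919, minus) and MAD2L1 (chr4:120066849-120067098, minus). They are shown because 3 of these genes were higher and 2 lower, so that matches within these bases, or their absence, can be read for each. Capitals mark TTTGAA and CCAAT or their reverse complements TTCAAA and ATTGG.
MKI67: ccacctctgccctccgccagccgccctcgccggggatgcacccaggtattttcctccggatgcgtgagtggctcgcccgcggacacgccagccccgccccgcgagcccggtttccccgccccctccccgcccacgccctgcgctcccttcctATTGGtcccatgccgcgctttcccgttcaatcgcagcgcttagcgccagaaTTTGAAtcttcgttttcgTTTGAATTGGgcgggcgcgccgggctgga
KIF23: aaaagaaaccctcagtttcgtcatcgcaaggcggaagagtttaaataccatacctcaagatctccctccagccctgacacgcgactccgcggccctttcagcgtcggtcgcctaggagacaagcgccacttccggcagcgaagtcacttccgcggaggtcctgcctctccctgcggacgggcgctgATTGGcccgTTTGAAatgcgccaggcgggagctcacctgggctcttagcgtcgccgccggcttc
KIF20A: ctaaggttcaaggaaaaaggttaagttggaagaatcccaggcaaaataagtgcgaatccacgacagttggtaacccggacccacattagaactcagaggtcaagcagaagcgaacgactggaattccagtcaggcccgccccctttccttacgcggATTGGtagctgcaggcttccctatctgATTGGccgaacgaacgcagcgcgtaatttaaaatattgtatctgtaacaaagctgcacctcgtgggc
ASPM: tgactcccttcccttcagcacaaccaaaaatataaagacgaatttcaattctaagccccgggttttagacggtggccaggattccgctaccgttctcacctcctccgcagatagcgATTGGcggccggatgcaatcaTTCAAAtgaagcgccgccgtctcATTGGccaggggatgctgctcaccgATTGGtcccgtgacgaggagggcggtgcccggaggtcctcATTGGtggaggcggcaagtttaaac
MAD2L1: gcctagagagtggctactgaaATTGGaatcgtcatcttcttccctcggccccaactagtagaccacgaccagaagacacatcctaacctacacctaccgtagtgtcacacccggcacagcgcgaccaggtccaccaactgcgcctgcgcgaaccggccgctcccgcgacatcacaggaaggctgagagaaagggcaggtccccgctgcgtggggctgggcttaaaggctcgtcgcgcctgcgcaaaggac
In MKI67, TTTGAA stands at −47 to −42 and −29 to −24 from the start, and the second match shares its last base with a CCAAT on the opposite strand at −24 to −20. KIF23 has TTTGAA at −55 to −50, next to an opposite-strand CCAAT at −64 to −60. KIF20A, which was higher, has 2 CCAAT boxes and neither TTTGAA nor TTCGAA, and ASPM, which was lower, has 4 CCAAT boxes and a TTTGAA at −113 to −108, all on the opposite strand. In the MAD2L1 window the one TTTGAA lies after the start, at 25 to 30, outside the printed bases.

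A few of the mitotic genes changed after UC-764864, in both directions. Of the 49 members in the comparison, 5 rose (MKI67, AURKA, TPX2, KIF20A and KIF23) and 2 fell (ASPM and MAD2L1), at an adjusted p under 0.05 in edgeR's quasi-likelihood test with Benjamini-Hochberg adjustment over 13490 genes. The share that rose was 10.2%, against 5.11% of all genes tested, and the share that fell was 4.08%, against 8.13%. With library size as the only scaling, 4 members rose and 2 fell, against 3.77% and 9.42% of all genes. The median log2 fold change was 0.20 for the members and 0.01 for all genes tested, and 32 of the 49 values were positive, as were 6922 of all 13490. In 17 members (34.7%) all 3 UC-764864 libraries lay above all 3 DMSO libraries, against 19.0% of all genes, and in 3 (6.12%) below, against 17.0%. In bulk RNA, a different share of cells in G2 or mitosis and a different amount of these RNAs per cell cannot be told apart.

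**Figure D1:**
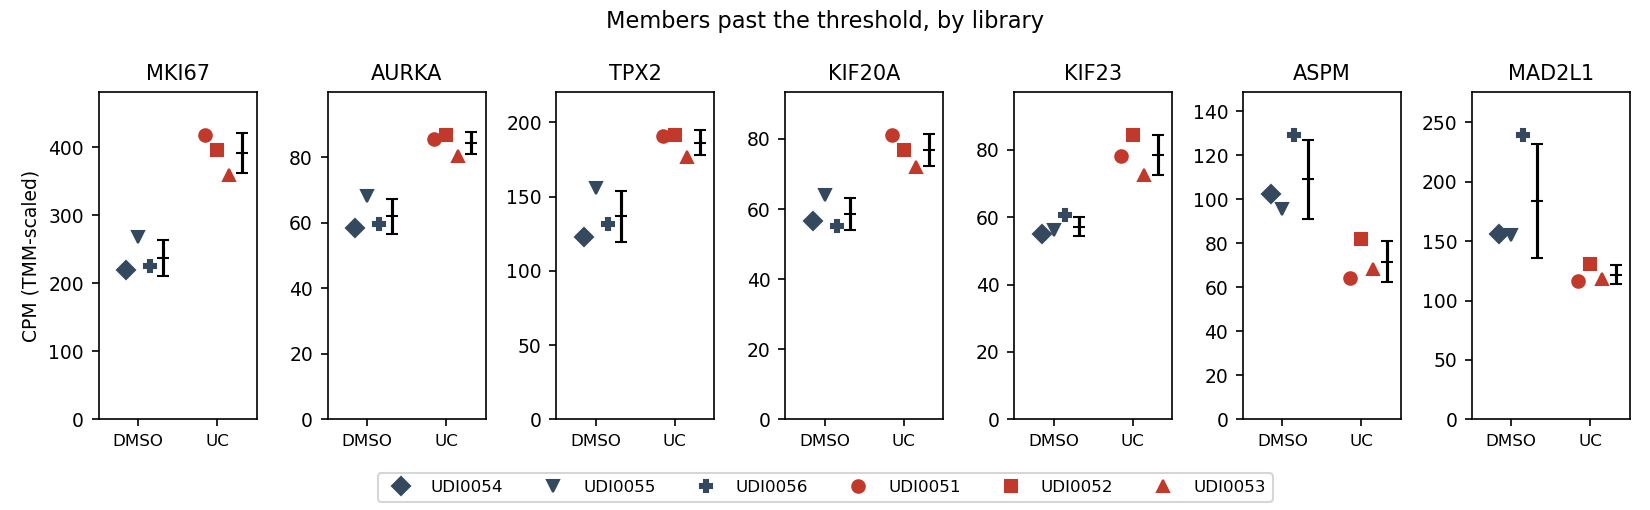
CPM (TMM-scaled, linear axis from 0) of the 7 members past the threshold, 1 point per library, with the group mean and SD as a bar beside the points. The UC-764864 (UC) points of MKI67, AURKA, TPX2, KIF20A and KIF23 all lie above the DMSO points, and those of ASPM and MAD2L1 all lie below.

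The call of MKI67 held in each of the 6 fits that leave out a library (adjusted p from 0.00201 to 0.0341). The calls of AURKA, TPX2, KIF20A, KIF23, ASPM and MAD2L1 were each lost without UDI0051, without UDI0053 and without UDI0054, where 1 member was higher and 0 lower. In those 3 fits 0.452%, 1.19% and 0.69% of all genes were higher and 2.03%, 3.31% and 3.49% lower, and the sign of each of these members held in every fit without a library. AURKA, TPX2, KIF20A and KIF23 were also lost without UDI0052, where 1 member was higher and 3 lower (2.12% and 6.79% of all genes), and KIF20A and MAD2L1 without UDI0056. Without UDI0055, 15 were higher and 5 lower, against 11.1% and 12.6% of all genes. With the 0 values of UDI0055 kept as counts, where 0.157% of all genes were higher and 0.891% lower, none of the 7 passed, with adjusted p from 0.0527 for MKI67 to 0.102 for MAD2L1.

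MKI67 and TOP2A are the usual markers of cycling cells, a coat protein of mitotic chromosomes and the topoisomerase that untangles DNA. MKI67 stood at 418, 396 and 360 CPM in UDI0051, UDI0052 and UDI0053 and at 220, 268 and 226 CPM in UDI0054, UDI0055 and UDI0056. The groups lay well apart, and MKI67 had the largest log2 fold change of the members, 0.72 ± 0.12 (SE; 391 ± 29.6 against 238 ± 26.4 CPM, SD, n = 3 per group; edgeR adjusted p = 0.00616). TOP2A stood at 496, 606 and 481 CPM after UC-764864 and 454, 468 and 531 CPM after DMSO. Its groups overlapped, because the DMSO library UDI0056 lay above 2 of the UC-764864 libraries (log2 fold change 0.12 ± 0.12, edgeR adjusted p = 0.521).

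Among the genes of mitotic entry, AURKA, the centrosomal kinase that promotes spindle assembly and activates PLK1, rose. It stood at 85.5, 86.9 and 80.5 CPM after UC-764864 and 58.4, 68.1 and 59.5 CPM after DMSO, with no overlap (log2 fold change 0.44 ± 0.11, edgeR adjusted p = 0.0287). PLK1, the polo kinase that acts from mitotic entry to cytokinesis, stood at 155, 120 and 134 CPM against 88.4, 124 and 79.5 CPM. Its largest DMSO value, in UDI0055, exceeded the UC-764864 value of UDI0052, and it did not pass (0.49 ± 0.17, edgeR adjusted p = 0.0700).

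Cyclin B and its kinase had fold changes of opposite sign. CCNB1 stood at 160, 166 and 147 CPM after UC-764864 and 120, 150 and 126 CPM after DMSO (0.25 ± 0.12, edgeR adjusted p = 0.173). CDK1 stood at 100.2, 146 and 121 CPM after UC-764864 and 153, 145 and 226 CPM after DMSO (−0.51 ± 0.18, edgeR adjusted p = 0.0814). Neither passed, and in both genes 1 library crossed into the other group, UDI0055 for CCNB1 and UDI0052 for CDK1. Without UDI0056, the highest library for CDK1, its log2 fold change was −0.28 (edgeR adjusted p = 0.206). CCNB2, the second mitotic B cyclin, was at 0.24, and CCNA2, which acts in S phase and G2, at −0.19. Of the CDC25 phosphatases, CDC25B was at 0.24 and CDC25C at −0.12. FOXM1, a transcription factor of late cell cycle genes, was at 0.36 and CDCA3, a cofactor of a ubiquitin ligase that acts on WEE1, at 0.33, both without overlap and short of the threshold (edgeR adjusted p = 0.0842 and 0.0789). GTSE1, a microtubule-associated protein of G2, had values of 44.1, 35.2 and 37.7 CPM after UC-764864 and 34.0 and 26.7 CPM in UDI0054 and UDI0056. It did not pass in the 5 libraries (0.37 ± 0.15, edgeR adjusted p = 0.0852), where 9.88% of genes were called higher and 13.9% lower.

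The 5 spindle checkpoint genes split by gene. MAD2L1, whose protein binds CDC20 to hold back anaphase, fell: it stood at 117, 131 and 118 CPM after UC-764864 and 156, 155 and 240 CPM after DMSO (−0.59 ± 0.16, edgeR adjusted p = 0.0358). The UDI0056 value stood far above the other 2 DMSO values, and without that library the log2 fold change was −0.36 (adjusted p = 0.0620). TTK, the MPS1 kinase that recruits the checkpoint proteins, stood at 84.6, 112 and 93.9 CPM against 126, 112 and 162 CPM, so that UDI0052 and UDI0055 met (−0.46 ± 0.16, edgeR adjusted p = 0.0710), and its value was −0.29 without UDI0056. BUB3, the scaffold that brings BUB1 and BUB1B to kinetochores, was at −0.25 with all UC-764864 libraries below (edgeR adjusted p = 0.156). The kinase BUB1 and the BUBR1 gene BUB1B were at 0.29 and 0.32 with all UC-764864 libraries above (edgeR adjusted p = 0.109 and 0.0856).

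No gene of the kinetochore and centromere list passed. CENPF, a large kinetochore and nuclear envelope protein, stood at 238, 258 and 213 CPM after UC-764864 and 187, 163 and 211 CPM after DMSO (0.34 ± 0.13, edgeR adjusted p = 0.0954). The groups did not overlap, although UDI0053 and UDI0056 lay close together. NUF2 and NDC80 are partners in the complex that grips microtubules. NUF2 stood at 45.4, 56.9 and 45.2 CPM against 61.0, 50.7 and 74.3 CPM (−0.33 ± 0.16, edgeR adjusted p = 0.167), with overlap. NDC80 was at 0.03, the kinesin CENPE at −0.26, the centromeric histone CENPA at 0.12 and the cohesin protector SGOL1 at −0.19. The NDC80 value changed sign with library size as the only scaling (−0.01).

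All 4 genes of anaphase promotion had positive fold changes, and none passed. CDC20 stood at 182, 138 and 158 CPM after UC-764864 and 102, 146 and 97.1 CPM after DMSO (0.47 ± 0.16, edgeR adjusted p = 0.0776), with UDI0055 above UDI0052. PTTG1, which encodes securin, the inhibitor of separase, stood at 81.3, 85.2 and 80.5 CPM against 69.5, 62.8 and 72.5 CPM. Its groups did not overlap (0.27 ± 0.11, edgeR adjusted p = 0.123). UBE2C and UBE2S, the ubiquitin-conjugating enzymes that start and extend chains on targets of the anaphase-promoting complex, were at 0.25 and 0.20, both with overlap. Reads of UBE2S may be split with the copy UBE2SP2, which held 853 counts over the 6 libraries against 16997 for UBE2S.

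**Figure D2:**
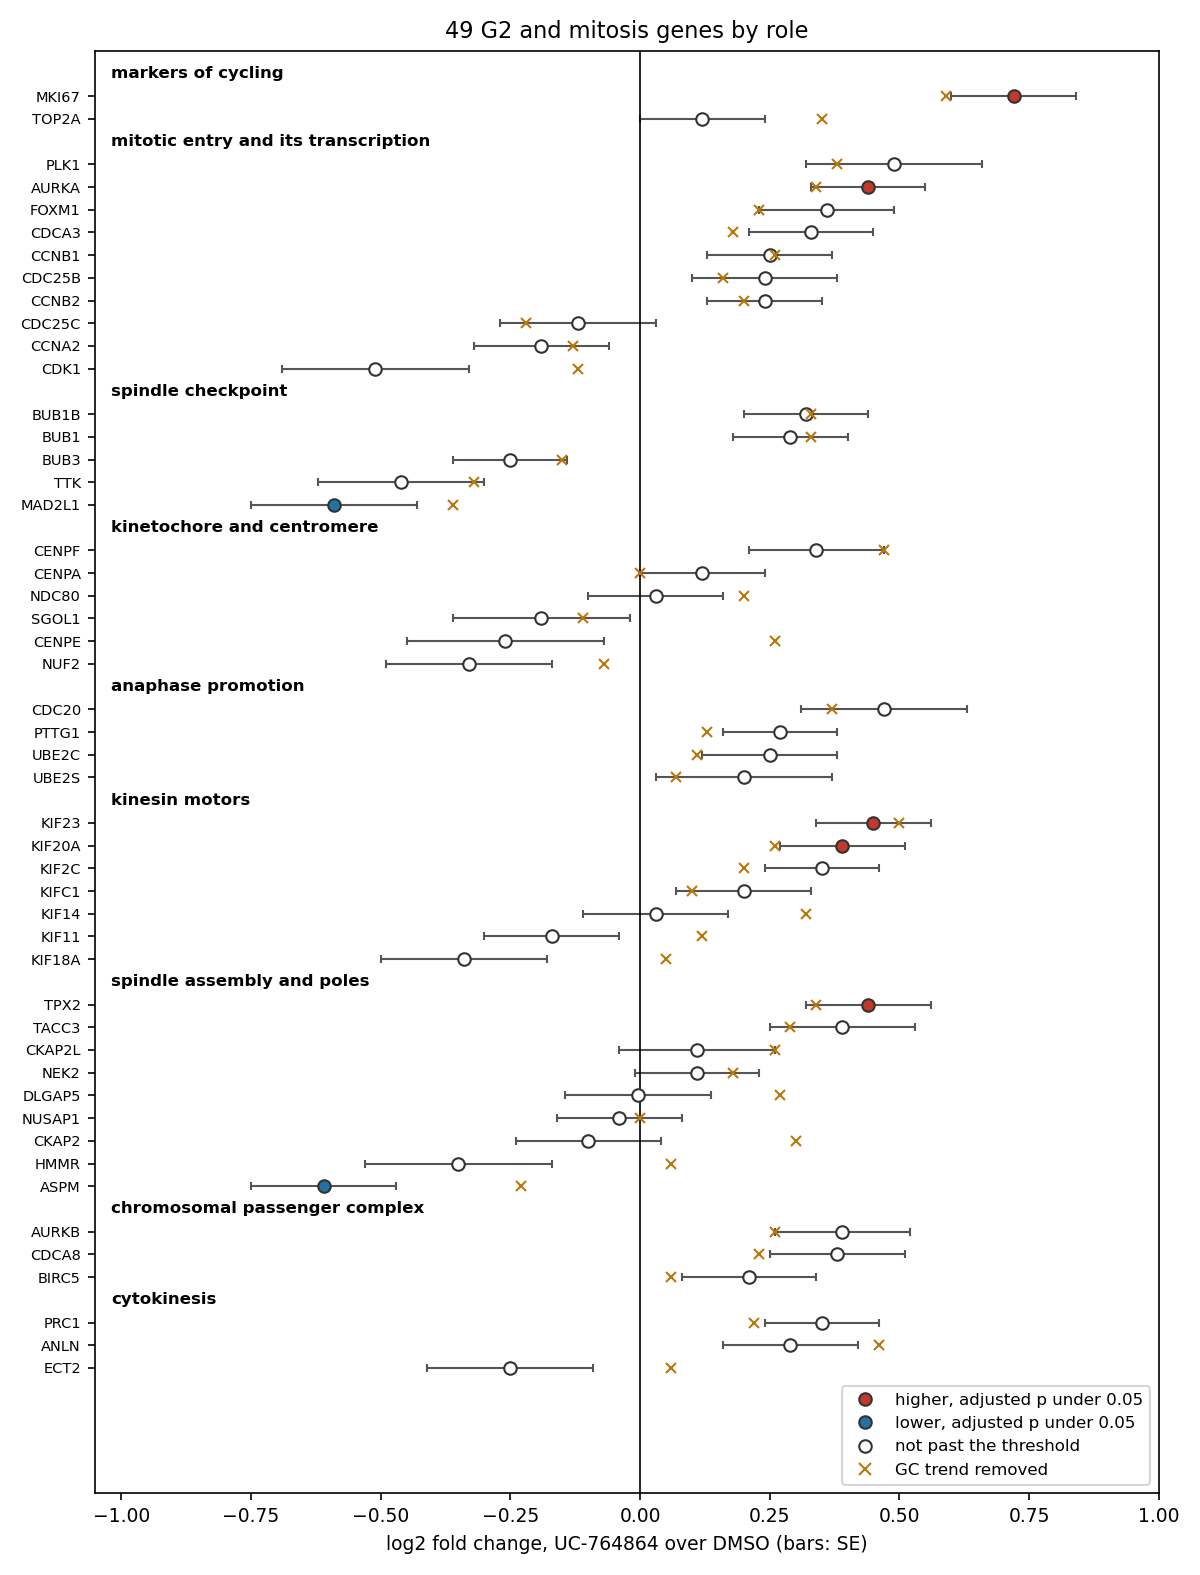
Log2 fold change of UC-764864 over DMSO for the 49 members tested in 6 libraries, grouped by role, with SE bars (circles, filled where past the threshold); crosses give the value with each library's GC trend removed. Filled circles stand at MKI67, AURKA, KIF23, KIF20A and TPX2 on the right and at MAD2L1 and ASPM on the left.

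Among the 7 kinesin motors, counted without CENPE, the 2 that rose serve the central spindle. KIF23, a subunit of centralspindlin, stood at 78.1, 84.5 and 72.6 CPM after UC-764864 and 55.0, 56.1 and 60.6 CPM after DMSO (0.45 ± 0.11, edgeR adjusted p = 0.0260). KIF20A, which carries the passenger complex to the midzone, stood at 81.2, 77.0 and 72.0 CPM against 56.5, 63.9 and 55.3 CPM (0.39 ± 0.12, edgeR adjusted p = 0.0466). Neither gene's groups overlapped. KIF20A shares exonic sequence on the opposite strand with CDC23, and whether counting used the strand is not given in the sources used here, so its value is uncertain. The same limit holds for CCNA2 with EXOSC9 (8949 counts), CDC25C with FAM53C (12539 counts) and KIF18A with METTL15 (2753 counts). The call of KIF20A was also lost with RLE factors, with library size only, with no filter on low counts, among genes with a GC value and without UDI0052 and UDI0056 (edgeR adjusted p from 0.0531 to 0.0690). The microtubule depolymerase KIF2C was at 0.35 (edgeR adjusted p = 0.0595) and the minus-end motor KIFC1 at 0.20. KIF11, which pushes spindle poles apart, was at −0.17, and KIF18A, which dampens chromosome movements, at −0.34. KIF14, a cytokinesis motor, was at 0.03, and at −0.02 with library size only.

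Among spindle assembly factors 1 gene rose and 1 fell. TPX2, which activates AURKA on spindle microtubules, stood at 191, 192 and 177 CPM after UC-764864 and 123, 156 and 131 CPM after DMSO, with no overlap (0.44 ± 0.12, edgeR adjusted p = 0.0335), but it did not pass without UDI0052 and UDI0056 (adjusted p = 0.0609). ASPM, a spindle pole protein, stood at 64.3, 82.0 and 68.4 CPM against 102, 95.4 and 129 CPM, also without overlap (−0.61 ± 0.14, edgeR adjusted p = 0.0214). TACC3, which stabilises kinetochore fibres, was at 0.39 with all UC-764864 libraries above (edgeR adjusted p = 0.0848), and HMMR, which guides spindle orientation, was at −0.35 with overlap. The centrosome kinase NEK2 was at 0.11, and the microtubule-associated CKAP2L, NUSAP1 and CKAP2 were at 0.11, −0.04 and −0.10. DLGAP5, a spindle-stabilising protein, was at −0.00375 ± 0.14.

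The chromosomal passenger complex corrects faulty attachments and then regulates abscission, and its 3 genes among the members all had positive fold changes. CDCA8, the borealin gene, stood at 79.8, 73.4 and 70.5 CPM after UC-764864 and 55.5, 65.3 and 50.5 CPM after DMSO (0.38 ± 0.13, edgeR adjusted p = 0.0651). AURKB, its kinase, stood at 58.8, 49.8 and 53.5 CPM against 40.7, 47.3 and 35.6 CPM (0.39 ± 0.13, edgeR adjusted p = 0.0734). Both were without overlap and short of the threshold, and the survivin gene BIRC5 was at 0.21 with overlap.

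Of the remaining cytokinesis genes, PRC1, the microtubule bundler of the midzone, stood at 166, 166 and 154 CPM after UC-764864 and 125, 134 and 124 CPM after DMSO. It lay just outside the threshold without overlap (0.35 ± 0.11, edgeR adjusted p = 0.0514). ANLN, the contractile ring scaffold anillin, stood at 102, 125 and 97.5 CPM against 84.0, 82.0 and 99.6 CPM (0.29 ± 0.13, edgeR adjusted p = 0.158). ECT2, the exchange factor that activates RhoA at the cell equator, was at −0.25 with overlap. None of these 3 passed. The motors KIF14, KIF20A and KIF23, counted above, also act in cytokinesis. The cytokinesis genes had a median of 0.29 without these motors (0 rose, 0 fell of 3) and 0.32 with them (2 and 0 of 6). The checkpoint genes had a median of −0.25 (0 rose, 1 fell of 5), the kinetochore genes −0.08 (0 and 0 of 6) and the 7 motors 0.20 (2 and 0), where 5.11% of all genes rose and 8.13% fell. CENPE, also a kinesin, was counted with the kinetochore genes. With each library's GC trend removed, as described below, the medians were −0.15 for checkpoint, 0.10 for kinetochore and 0.20 for motor genes. The cytokinesis genes were then at 0.22 without and 0.29 with their motors. The differences between these role medians were not tested.

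The sign of the fold change followed the GC content of the transcript. Of 13 members under 40% GC, 2 had a positive fold change and the median was −0.26, whereas all 13 members of at least 50% GC were positive with a median of 0.35. The 4 anaphase promotion genes, all positive, lay at 49.3 to 57.9% GC and the 3 passenger complex members at 51.4 to 55.6%. With the GC trend removed, as described below, their medians moved from 0.26 to 0.12 and from 0.38 to 0.23. Over the 49 members, GC content and log2 fold change had a Pearson r of 0.67 and a Spearman rho of 0.73, and over 12194 tested genes with a GC value 0.20 and 0.26. These points share the same 6 libraries, so the values are descriptions. Medians of all genes were −0.33 under 40% GC and 0.09 at 50% and above. Members at 40 to 45% GC had both signs, from −0.46 for TTK to 0.45 for KIF23.

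**Figure D3:**
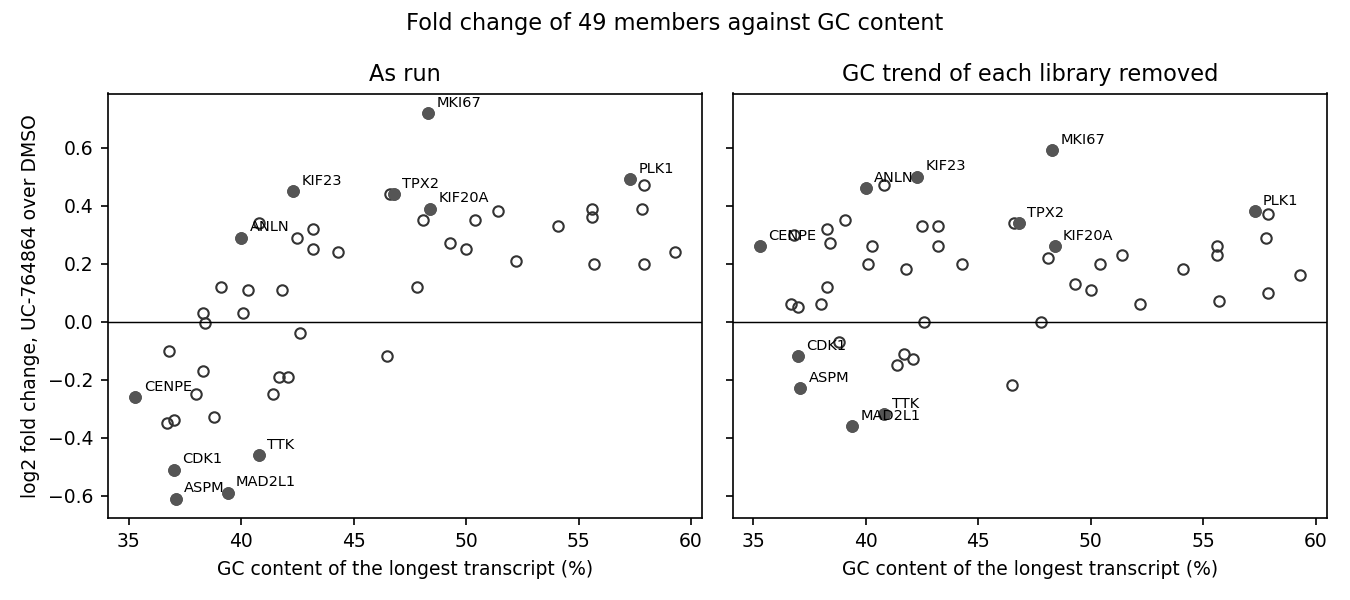
Log2 fold change of the 49 members (vertical axis) against GC content of the longest protein-coding transcript in percent (horizontal axis). Values are as run on the left and with each library's GC trend removed on the right. Named points are filled. On the left ASPM, CDK1 and MAD2L1 lie low at under 40% GC, and on the right CENPE lies above 0 at 0.26 while MAD2L1, TTK and ASPM remain below 0.

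With each library's GC trend removed, a step that also removes any treatment difference that follows GC content, 23 members were higher (46.9%, against 16.0% of 12194 genes) and 3 lower (6.12%, against 15.3%). The 3 lower members were MAD2L1 (−0.36, edgeR adjusted p = 0.00631), TTK (−0.32, adjusted p = 0.00834) and ASPM (−0.23, adjusted p = 0.0149). All 7 genes called before were still called in the same direction, KIF23 at 0.50 (edgeR adjusted p = 2.70e-04) and MKI67 at 0.59 (adjusted p = 3.59e-04). CDK1 moved from −0.51 to −0.12 (edgeR adjusted p = 0.275). CENPE, CKAP2 and DLGAP5, under 40% GC, changed sign and passed as higher at 0.26, 0.30 and 0.27 (edgeR adjusted p = 0.0422, 0.0135 and 0.0154). TOP2A, ANLN, CENPF and KIF14 passed as higher at 0.35, 0.46, 0.47 and 0.32. The checkpoint genes BUB1 and BUB1B, short of the threshold as run, also passed as higher, both at 0.33. The same was true of PLK1 (0.38), CDC20 (0.37), TACC3 (0.29), AURKB (0.26), CKAP2L (0.26), CDCA8 (0.23), FOXM1 (0.23), PRC1 (0.22) and KIF2C (0.20). The part of GC content in the fold changes as run was not tested beyond this comparison.

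Ratios of 2 counts in the same library need no scaling between libraries, and the pairs below were chosen after their values were seen. CDC20 counts per MAD2L1 count were 1.56, 1.06 and 1.34 in the UC-764864 libraries and 0.654, 0.937 and 0.405 in the DMSO libraries. The groups did not overlap, with the GC trend kept or removed (1.10 to 1.23 against 0.594 to 0.854). The groups of MAD2L1 alone were already separate. BUB1 per TTK was 2.06, 1.73 and 1.70 against 1.09, 1.35 and 0.894, and TPX2 per ASPM was 2.97, 2.34 and 2.58 against 1.20, 1.64 and 1.02, again without overlap. The groups of TPX2 and of ASPM were already separate in opposite directions, so the separation of their ratio was fixed and adds no further result. BUB1 was also separate above, and TTK met only at 112.2 CPM in UDI0052 and 111.7 CPM in UDI0055. The separation of BUB1 per TTK was therefore nearly fixed and adds little. CCNB1 per CDK1 was 1.60, 1.14 and 1.21 against 0.789, 1.03 and 0.556, but with the GC trend removed UDI0055 (1.07) lay within the UC-764864 values (1.05 to 1.34). CCNB2 per CDK1 was 0.889, 0.638 and 0.714 against 0.493, 0.548 and 0.319. It stayed without overlap with the GC trend removed (0.59 to 0.72 against 0.44 to 0.56). CCNB2 was already separate above, and CDK1 met only at 146.1 CPM in UDI0052 and 145.3 CPM in UDI0055, so this ratio adds little. CCNA2 per CDK1 overlapped between the groups, 1.56, 1.20 and 1.29 against 1.05, 1.27 and 0.931. NUF2 per NDC80 was lower after UC-764864, 0.762, 0.805 and 0.826 against 1.02, 0.932 and 1.12. AURKA per TPX2 was nearly even, from 0.436 to 0.475 over all 6 libraries. AURKB per BIRC5 lay higher after UC-764864, 0.481, 0.446 and 0.478 against 0.436, 0.4 and 0.409. KIF20A per KIF23 overlapped, 1.04, 0.911 and 0.993 against 1.03, 1.14 and 0.913, but lay lower with the GC trend removed (0.911 to 0.932 against 1.07 to 1.12). BUB1B per MAD2L1 also lay higher, which the separate groups of each gene already fixed. How often ratios of other gene pairs separate the groups was not computed. With 3 libraries a group, an exact permutation test of such a ratio cannot go below p = 0.10.

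**Figure D4:**
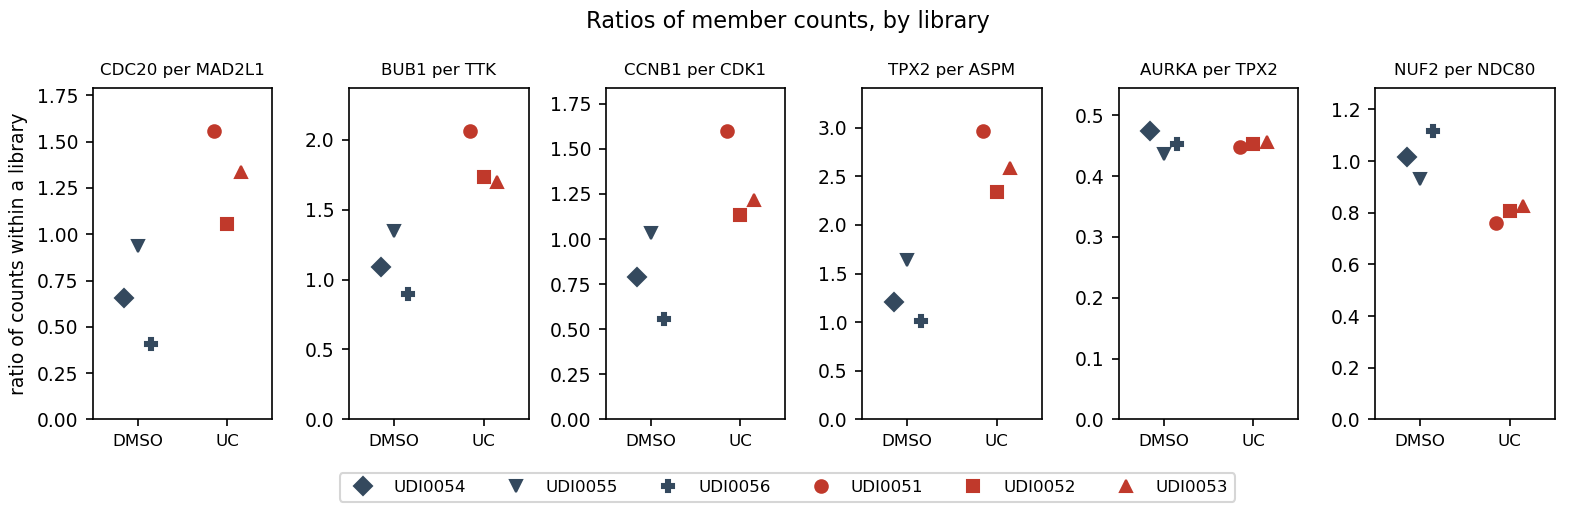
Ratio of counts of 2 members within each library (vertical axes from 0), 1 point per library, DMSO on the left and UC-764864 (UC) on the right of each panel. CDC20 per MAD2L1, BUB1 per TTK, CCNB1 per CDK1 and TPX2 per ASPM lie higher in the UC-764864 libraries, NUF2 per NDC80 lies lower, and AURKA per TPX2 stays between 0.436 and 0.475.

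Of 97 other genes of the pathway, 92 were tested, 9 rose (5.11% of all genes did) and 7 fell (8.13%), with a median log2 fold change of 0.02. CKAP5, a microtubule polymerase, rose at 0.53 ± 0.11 (edgeR adjusted p = 0.0135), standing at 257, 256 and 228 CPM against 161, 182 and 171 CPM. ANAPC1, the largest scaffold subunit of the anaphase-promoting complex, rose at 0.47 ± 0.11 (adjusted p = 0.0190). CENPH, a subunit of the constitutive centromere network, fell at −0.90 ± 0.14 (edgeR adjusted p = 0.0049), from 37.7, 44.1 and 51.6 CPM to 22.0, 25.4 and 24.2 CPM. ARPP19, which inhibits the phosphatase that opposes CDK1, fell at −0.58 ± 0.13 (adjusted p = 0.0187). It was at −0.18 and did not pass once the GC trend was removed. Of 31 checkpoint and kinetochore genes outside the members, 4 fell and 1 rose. Those that fell were CENPH, CENPQ, CENPK and SGOL2, and the one that rose was KNSTRN, all but CENPH named after their values were seen. CENPH was called in all 6 fits that leave out a library, CENPQ and SGOL2 in 3, and CENPK and KNSTRN in 1. CKAP5 and ARPP19 were called in 4 of those fits and ANAPC1 in 3. CENPK was at −0.78, and at −0.04 with the GC trend removed. Of 13 tested cohesin and condensin genes 2 rose and none fell. With the GC trend removed 25 of the 92 were higher and 6 lower, against 16.0% and 15.3% of genes.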

How the data were processed

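Counts of reads per gene were deposited by the authors as whole numbers, not normalized, with 1 column for each library. A deposited table gives each column's treatment and no replicate number. Per the submitters' processing notes, FastQC 0.11.7, HISAT2 2.0.5, featureCounts 1.5.2 and GRCh37 were used, without roles. Annotation release and strand setting: not given in the sources used here. Rows in the runs of 0 in UDI0055 were read as missing, which left 52839 of 56638 rows. After filterByExpr and TMM scaling (0.978 to 1.03) they were tested in R 4.3.3 with edgeR 4.0.16 (glmQLFit, glmQLFTest), with treatment as the only term, and adjusted over 13490 genes at a threshold of 0.05. Each SE was derived from the fold change and its F statistic. GC content comes from the longest protein-coding transcript in GENCODE (GRCh38), or the longest transcript for genes without one. Its trend was removed by a lowess offset (span 0.3). Alternatives were DESeq2 1.42.0, RLE factors, no TMM, an unfiltered fit and left-out libraries. The members and lists were chosen with earlier results of these data known. Named with values in every library are members past the threshold, the 2 of smallest p in each role, and MKI67, TOP2A, CCNB1, CDK1, PLK1, AURKA and AURKB. Other pathway genes are named up to 2 per direction by p. A count of 3 corresponds to 0.122 to 0.202 CPM, which covers counting error only.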

Additional observations from a re-analysis of the deposited data

How the results depend on the processing

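No paired analysis was possible because the columns of the count table carry no replicate number. Leaving out 1 library in turn gave 1 to 15 members higher and 0 to 5 lower, and 62 to 1525 of all genes higher and 278 to 1729 lower. DESeq2 called 10 members higher and 4 lower (3.72% and 5.39% of all genes), and no filter on low counts gave 7 and 4 (3.4% and 6.89%, 1676 genes lower). With the rows at 0 kept as counts, edgeR called 0 members higher and 0 lower (22 and 125 of all genes), with 19 and 5 at an unadjusted p under 0.05. Without UDI0052 and UDI0056, 3 members were higher and 5 lower (4.07% and 8.98% of all genes). With the GC trend removed 23 members were higher, and 1951 genes were higher and 1866 lower, while the same genes with the trend kept gave 4 and 2 members (4.63% and 9.14% of genes). RLE factors and library size only each gave 4 members higher and 2 lower (4.49% and 8.61% of all genes with RLE). The 0 lower members without UDI0051, UDI0053 or UDI0054 compare with 2, 4 and 5 at an unadjusted p under 0.05 in edgeR. The median of the members lay between 0.15 and 0.24 in every setting. No called member changed sign. Members short of the threshold that did were, with the GC trend removed, CENPA (−0.00), CENPE (0.26), KIF11 (0.12), KIF18A (0.05), ECT2 (0.06), HMMR (0.06), DLGAP5 (0.27), NUSAP1 (0.00) and CKAP2 (0.30). NDC80 (−0.01) and KIF14 (−0.02) did so with library size only, KIF14 (−0.01) among the genes with a GC value, a setting added after the data were seen, and NDC80 (−0.02) without UDI0052 and UDI0056. Over the fits without 1 library, TOP2A ranged from −0.02 to 0.20, NDC80 from −0.10 to 0.12, KIF14 from −0.10 to 0.15, DLGAP5 from −0.17 to 0.10, NUSAP1 from −0.15 to 0.04, CKAP2 from −0.24 to 0.05, CKAP2L from −0.04 to 0.22 and NEK2 from −0.00 to 0.19. The cause of these changes was not tested. The median SE of the members was 0.13, which limits the size of change that 3 libraries a group can show.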
